A study of Homo sapiens with 15 samples.

Results

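CRY1, CRY2 and CIART are the repressors examined here, 3 of 20163 annotated protein-coding genes, and every peak of the 4 deposited lists was searched for them. A peak was given to a gene when, among the start sites of protein-coding genes, that of the gene was nearest to the peak's summit, or when the summit lay in the gene body. The rule found 3 peaks, 1 for each gene, all in the BMAL1 list of control cells. It found 0 in each of the other 3 lists.

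CRY1 and CRY2 are cryptochromes, which bind the activator pair of CLOCK and BMAL1 and hold it inactive. CIART, also known as CHRONO, binds BMAL1 and represses the same pair. CLOCK and BMAL1 drive transcription of these genes through the E-box, a palindromic hexamer, so the repressors close a negative feedback loop of the circadian clock. HIF2α, a hypoxia-inducible factor stabilised in clear cell renal cell carcinoma (ccRCC) by loss of VHL, binds the related hypoxia response element (HRE).

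The lists come from CUT&RUN, in which an antibody brings a nuclease to a chromatin protein and the released DNA is sequenced. The cells were 786-O, an established ccRCC line, carrying a lentiviral shRNA against a control sequence (shControl) or against BMAL1 (shBMAL1), selected and maintained in puromycin, with 100000 cells in each reaction. BMAL1 and HIF2α were each profiled in 3 libraries per shRNA, except BMAL1 in shBMAL1 cells, which had 2 libraries, and the labels name 4 IgG libraries besides. A further BMAL1 library of shBMAL1 cells was dropped by the authors because it held far fewer reads than the rest. Each group has 1 pooled list, so the values below have no replicate error. No test was run. The methods give no circadian time of harvest for these cells. The lists hold no measure of BMAL1 expression, so that the knockdown could not be checked from them. The paper reports efficient BMAL1 depletion by Western blot in 786-O cells with the shRNA.

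The BMAL1 peak of CIART lay on chromosome 1 (150254458 to 150255101, hg19), from 506 bp upstream to 137 bp downstream of the start of the MANE transcript, the reference transcript of the gene. Its summit was 130 bp upstream of that start. The peak of CRY2 lay on chromosome 11 (45868737 to 45869120), from 289 bp upstream to 94 bp downstream, with the summit 78 bp upstream. A longer CRY2 transcript starts before the peak, and the summit fell in the first intron of that transcript. The peak of CRY1 lay on chromosome 12 (107487375 to 107487873), from 546 bp to 48 bp upstream, with the summit 128 bp upstream of the start. All 3 peaks were thus promoter peaks, as were 63.3% of the 1812 peaks of this list (1147 peaks with a summit at most 1000 bp before or 100 bp after an annotated start site).

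The hg19 sequence around each summit is shown on the strand of the gene, up to 120 bases to each side and ending where an annotated exon of the gene begins, because the 3 summits differ in their E-boxes. Capitals mark the E-box CACGTG, the related E′-box CACGTT, which reads AACGTG on the other strand, and the HRE core, ACGTG or GCGTG on either strand. The E-box contains the HRE core on both strands. The stretches are chr1:150254714-150254952 (plus strand), chr11:45868833-45868956 (plus strand) and chr12:107487335-107487574 (minus strand), with the summits at bases 121, 116 and 120.
CIART: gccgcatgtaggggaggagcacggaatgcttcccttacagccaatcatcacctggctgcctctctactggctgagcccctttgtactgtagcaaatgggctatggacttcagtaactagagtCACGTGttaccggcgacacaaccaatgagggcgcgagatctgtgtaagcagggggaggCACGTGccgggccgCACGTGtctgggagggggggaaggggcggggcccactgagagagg
CRY2: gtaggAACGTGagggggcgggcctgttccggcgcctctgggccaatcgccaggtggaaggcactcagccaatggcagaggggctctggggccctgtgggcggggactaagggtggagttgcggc
CRY1: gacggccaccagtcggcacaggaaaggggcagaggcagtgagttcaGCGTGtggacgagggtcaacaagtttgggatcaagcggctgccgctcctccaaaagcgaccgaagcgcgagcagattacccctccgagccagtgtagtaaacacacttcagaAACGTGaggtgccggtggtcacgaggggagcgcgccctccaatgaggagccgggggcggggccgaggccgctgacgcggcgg

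In the 200 bp window centred on the summit CIART had 3 E-boxes, and CRY1 and CRY2 had 0. The first E-box of CIART was centred 4.5 bp from the summit. The others were centred 62.5 bp and 76.5 bp from it, towards the gene. The first and second were separated by 52 bp and the last pair by 8 bp. A further E-box lay inside the CIART peak, 363.5 bp from the summit on the upstream side. Of 1809 windows of this list without undetermined bases, 12.9% held an E-box and 9 windows (0.498%) held 3 or more, and CIART had the smallest p of those 9. Windows of the same length centred on MANE start sites held an E-box in 5.67% of 18881 cases and 3 or more in 9 cases, a share of 0.0477%. In the RefSeq promoters of 300 bases (GRCh38.p14), all 3 genes were found, CRY2 with 2 promoters. The CIART promoter again held 3 E-boxes, and 33 of 35114 promoters (0.0940%) held 3 or more.

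CRY1 and CRY2 each carried an E′-box inside the peak. In CRY1 it was centred 41.5 bp from the summit on the side of the gene. In CRY2 it was 107.5 bp from the summit on the upstream side and so outside the 200 bp window. An E′-box was in 5.64% of the windows of this list and in 3.14% of windows at MANE start sites. The GC box GGGCGG, a motif of CpG-rich promoters, had 4 copies in the CRY2 window, 1 in that of CRY1 and 0 in that of CIART. The whole peaks held 6 in CRY2, 2 in CRY1 and 2 in CIART. The copy in the CRY1 window lay outside the called peak. At least 3 GC boxes were in 31.4% of the windows of the list, in 43.5% of its promoter windows and in 16.0% of those at MANE start sites. The CCAAT box CCAAT was present in all 3 windows, with 2 copies in CIART, 2 in CRY2 and 1 in CRY1. Any copy was in 32.1% of windows of the list and in 39.7% of its promoter windows. The GC content of the window was 58.5% for CIART, 62.5% for CRY1 and 70.5% for CRY2, where the median of the list was 65.5%.

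**Figure D1:**
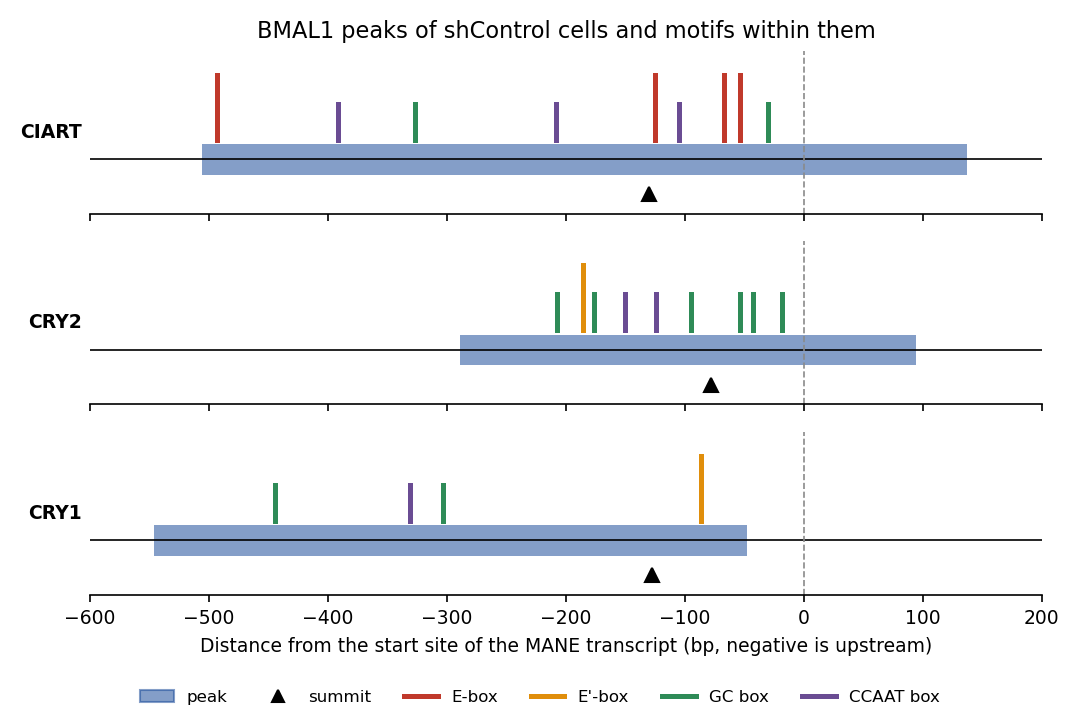
Each row maps 1 gene in bp from the start of its MANE transcript (negative is upstream), with the BMAL1 peak of shControl cells as a blue bar, its summit as a triangle, and motif matches inside the peak as vertical strokes. All 3 summits lie between 78 and 130 bp upstream of the start, red E-box strokes occur in CIART alone, and CRY1 and CRY2 each have 1 orange E′-box stroke.

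The 3 peaks were among the stronger ones of their list. Fold is the enrichment over the local background that the peak caller MACS2 reports, and −log10 p is its measure of significance. Both are values of a peak within its own list. CIART had a fold of 17.0 and a −log10 p of 96.0, and ranked 209 of 1812 by p, in the strongest 11.5% of peaks. CRY2 had a fold of 11.8 and a −log10 p of 66.4, and ranked 298 (16.4%). CRY1 had a fold of 10.98 and a −log10 p of 59.6, and ranked 337 (18.6%). The medians of the list were a fold of 7.13 and a −log10 p of 22.6. The order CIART, CRY2, CRY1 was the same by fold, where the ranks were 185, 354 and 410. The peaks of CIART, CRY1 and CRY2 were 644 bp, 499 bp and 384 bp wide, against a median of 240 bp. Pooling leaves no error on these folds, so the order of CRY2 and CRY1, whose folds differ little, cannot be set against a spread.

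In shControl cells BMAL1 peaks were at 3 of the 3 repressor genes, where 8.84% of all protein-coding genes had one. In shBMAL1 cells no BMAL1 peak was called at any of them (0 of 3, with 3.94% of all protein-coding genes called in that list). HIF2α peaks were at 0 of the 3 genes in shControl cells, where 5.16% of genes had one, and at 0 of 3 in shBMAL1 cells, where 4.55% did. Against percentages this low, a count of 0 of 3 genes is by itself no result about any of these 3 lists. Seen by peak, each of the 3 BMAL1 peaks overlapped no peak of the shBMAL1 BMAL1 list, as held for 61.3% of all peaks of the shControl list. None overlapped a HIF2α peak of shControl cells (81.5% of all peaks did not) or of shBMAL1 cells (85.5%). Peaks found in the shControl BMAL1 list and in none of the other 3 lists made up 45.3% of it.

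No other peak lay close by. The nearest BMAL1 peak of shBMAL1 cells was 1258 kb from the CIART summit, 1282 kb from that of CRY2 and 1638 kb from that of CRY1. The nearest HIF2α peak of shControl cells was 530 kb from the CIART summit, in the body of ARNT, which encodes the HIF partner. It was 1074 kb away for CRY2 and 1598 kb for CRY1. In the shControl BMAL1 list itself the nearest further peak was 42.3 kb from the CRY2 summit, at the promoter of SLC35C1, a fucose transporter, with a fold of 5.58. The lists show called peaks only. The smallest −log10 p in the shBMAL1 BMAL1 list was 9.07, which is the value of its weakest peak and not the calling cutoff. Signal at CRY1, CRY2 or CIART that was too weak to be called would not appear.

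**Figure D2:**
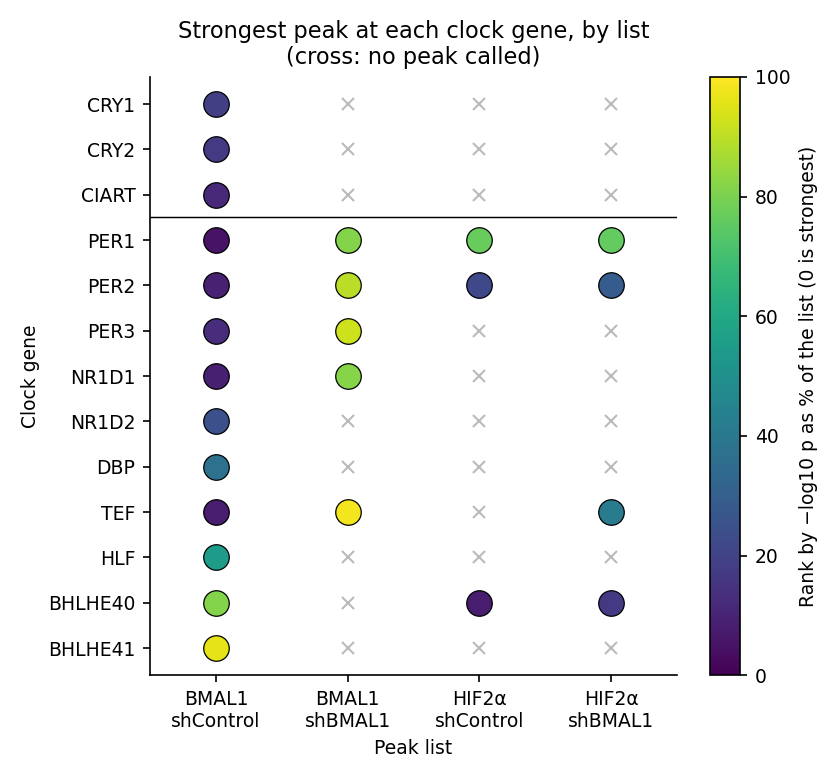
Each row is a clock gene and each column 1 of the 4 pooled lists. A filled circle marks the strongest peak given to the gene, coloured by its rank by −log10 p as a percentage of the list (0 is strongest), and a cross marks no peak. CRY1, CRY2 and CIART have a circle in the shControl BMAL1 column only, at 18.6%, 16.4% and 11.5%. NR1D2, DBP, HLF and BHLHE41 also have a circle in that column only.

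The strength of the 3 peaks can be read beside how often peaks of like strength were called again after knockdown. The list was divided into deciles by −log10 p, and CIART, CRY2 and CRY1 all fell in decile 2 (ranks 182 to 362). Of the 181 peaks of that decile, 167 were called again in shBMAL1 cells (92.3%, 95% Wilson interval 87.4% to 95.3%, which covers counting error over peaks only). The 14 that were not included all 3 repressor peaks. In decile 1 159 of 181 were called again, and the 22 that were not lay in EPAS1, which encodes HIF2α, or in ARNT. In decile 10 14 of 182 were. The peaks that neighbour those of CIART, CRY2 and CRY1 in rank, 1 above and 1 below in each case, were all called again. Among them the peak nearest to DGCR2 had the same fold and −log10 p as that of CRY1. Ranking by fold instead gave a less uneven picture. CIART and CRY2 then lay in decile 2, with 146 of 181 called again (80.7%, 74.3% to 85.8%), and CRY1 in decile 3, with 110 of 181 (60.8%, 53.5% to 67.6%). The shBMAL1 BMAL1 list was pooled from 2 libraries where the shControl list had 3, and the part of that difference in these calls was not tested.

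**Figure D3:**
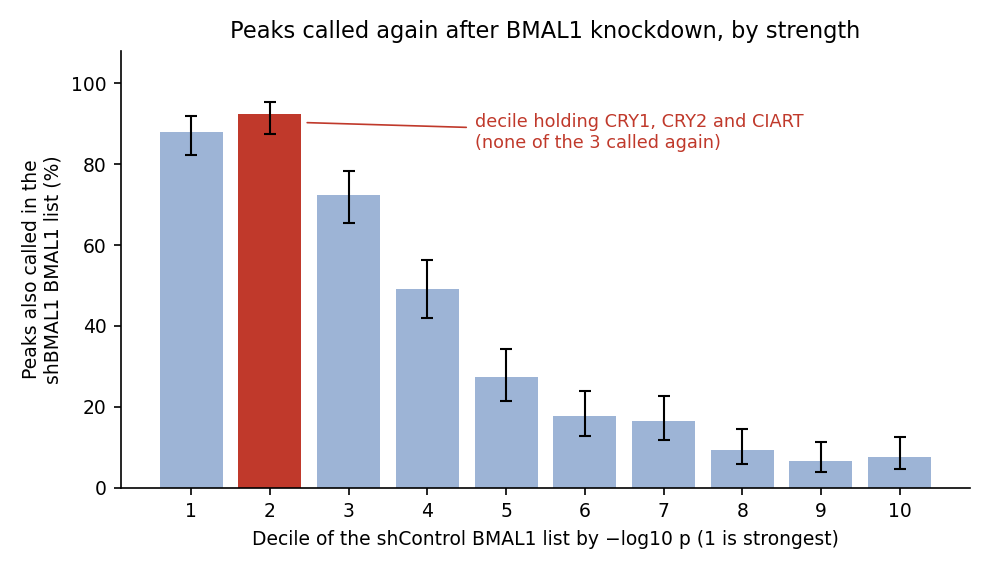
The shControl BMAL1 peaks are divided into deciles by −log10 p (horizontal axis, 1 is strongest), and bars give the percentage of peaks that overlap a BMAL1 peak of shBMAL1 cells, with 95% Wilson intervals. Decile 2 (red), which holds CRY1, CRY2 and CIART, stands at 92.3%, although none of these 3 peaks was called again.

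Of the 362 peaks in the first 2 deciles, 339 lay outside EPAS1 and ARNT, and 13 of these were not called in shBMAL1 cells. Beside CIART, CRY2 and CRY1 these were nearest to the start sites of MAP2K7, TTC34, SNX9, ZNF254, SRRM3, NR1D1, TLE6, RRP9, SLC25A6 and KHSRP, genes named because the count is small and after their values were seen. NR1D1, which encodes the nuclear receptor REV-ERBα, is the one further clock gene of the 13. Its peak there was at the promoter, with a fold of 11.4 and rank 313, next to those of CRY2 and CRY1 in strength. An E-box was in the window of 3 of the 13 (CIART, SNX9 and TLE6) and an E′-box in that of 3 (MAP2K7, NR1D1 and CRY1). Of the peaks that were called again, 13 of 159 in decile 1 had an E-box (8.18%) and 9 of 167 in decile 2 (5.39%). An E′-box was in 5.64% of all windows of the list.

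The repressors were set beside 10 further clock-output genes: the period genes PER1, PER2 and PER3, NR1D1 and NR1D2, the PAR bZIP factors DBP, TEF and HLF, and BHLHE40 and BHLHE41. All 10 had a BMAL1 peak in shControl cells, where 8.84% of all protein-coding genes did. The strongest peaks of HLF and BHLHE40 lay over 10 kb from a start site of the gene. By the p of the strongest peak CIART was the fifth, CRY2 the seventh and CRY1 the eighth of the 13. PER1 (rank 89, fold 26.9), TEF (rank 140, fold 16.2), NR1D1 (rank 160, fold 13.3) and PER2 (rank 168, fold 13.4) preceded CIART. PER3 (rank 229, fold 13.5) stood between CIART and CRY2. NR1D2 (rank 443, fold 10.6) followed CRY1, and BHLHE41 came last (rank 1740, fold 4.47). By fold CIART was the second, after PER1.

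In shBMAL1 cells the 5 outputs that kept a called BMAL1 peak were PER1, PER2, PER3, NR1D1 and TEF, 5 of 10 where 3.94% of all protein-coding genes were called. Within that list they ranked 627, 689, 709, 628 and 753 of 768. NR1D1 was called at a peak with its summit 1368 bp from a start site and not at its promoter. CIART ranked above PER3 in shControl cells, and PER3 was called after knockdown where CIART was not. The −log10 p of these 5 peaks was between 10.7 and 16.5 after knockdown, where the smallest of that list was 9.07. The lists give no value for the signal at CRY1, CRY2 and CIART there. The pattern of the repressors, a BMAL1 peak in shControl cells and none in the other 3 lists, was shared by NR1D2, DBP, HLF and BHLHE41.

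**Figure D4:**
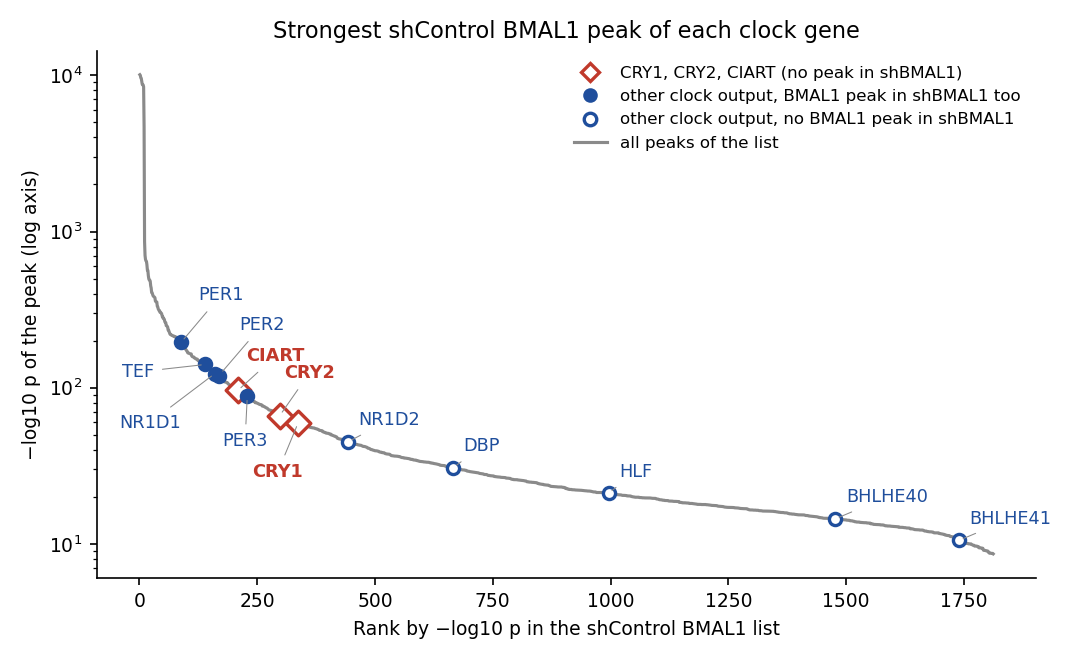
The grey line gives −log10 p (vertical, log axis) against rank for all 1812 shControl BMAL1 peaks, with the strongest peak of each of 13 clock genes marked. Filled symbols had a BMAL1 peak in shBMAL1 cells too. The open diamonds of CIART, CRY2 and CRY1 lie at ranks 209, 298 and 337, and PER3, at rank 229, is filled.

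HIF2α was called at 3 of the 10 further outputs (BHLHE40, PER1 and PER2) with shControl and at 4 with shBMAL1 (TEF in addition), where 5.16% and 4.55% of all protein-coding genes were called. With shControl the strongest HIF2α summits of BHLHE40 and PER2 were at promoters, and that of PER1 was 3035 bp from a start site. With shBMAL1 those of PER1 and PER2 were at promoters, and those of BHLHE40 and TEF were 15575 bp and 21233 bp away. The summit windows of shControl HIF2α peaks held an HRE core in 70.8% of 1204 cases. At the BMAL1 summits the HRE core was also present, once in the CRY2 window, in 2 places in CRY1 and in CIART only within its E-boxes. Of the 1809 windows of the shControl BMAL1 list, 58.2% held one. The match in the CRY2 window lies beyond the stretch printed above. In the whole CIART peak 1 HRE core lay outside an E-box, 288 bp from the summit on the upstream side. These matches are letters in the sequence and do not mark binding.

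The remaining clock genes were taken as 2 lists. Of 7 activators and opposing factors (ARNTL, the older symbol for BMAL1 itself, ARNTL2, CLOCK, NPAS2, RORA, RORB and NFIL3), 0 had a BMAL1 peak with either shRNA, where the background was the 8.84% and 3.94% above. HIF2α peaks were given to RORB and NFIL3 in shBMAL1 cells, over 100 kb from their start sites. The other list held 7 genes linked to the turnover, modification or binding of CRY and PER proteins (CSNK1D, CSNK1E, FBXL21, BTRC, FBXW11, TIMELESS and USP2). Of these, 6 are annotated as protein-coding, since FBXL21 is listed as a pseudogene. BMAL1 peaks in shControl cells were at 2 of them, where 8.84% of all protein-coding genes had one. These were CSNK1D (fold 4.15, rank 1383), which encodes a PER kinase, and BTRC (fold 4.33, rank 452), which encodes part of a PER ubiquitin ligase. Neither summit lay at a promoter. BTRC also had a HIF2α peak in shBMAL1 cells (rank 209). Its summit was 10379 bp from a start site, where that of the BMAL1 peak was 10387 bp.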

How the data were processed

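The 15 libraries fall into 6 groups by antibody and shRNA, and 4 of the groups have a deposited peak list. Per the authors' methods and processing notes, paired reads were aligned to hg19 and sacCer3 (Bowtie2 2.5.3), filtered and stripped of duplicates (SAMtools 1.6), peaks were called (MACS2 2.2.9.1) and blacklisted regions removed (bedtools 2.31.1). Whether IgG served as control in peak calling is not given in the sources used here. The authors deposited a fold enrichment, a ratio over local background, for each peak. Each fold is accompanied in the deposited lists by a −log10 p from MACS2. The lists carry no read counts, so the depth behind each peak is unknown. The study's reporting summary gives a like read depth for all libraries kept, and 1 BMAL1 library of shBMAL1 cells was discarded for low depth. Folds and −log10 p were compared only within a list. The IgG libraries were not analysed here.

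Start sites and gene bodies were GENCODE v44lift37, and sequence was GRCh37, which shares chromosome coordinates with hg19. Peaks were matched by overlap of at least 1 bp, and motifs were searched on both strands. Gene assignment, overlap and the E-box search were tested on simulated data. There 200 of 200 summits, start sites, planted E-box sets and overlaps were recovered. The E-boxes were planted in sequence of A and T only, so the search was not tested on GC-rich sequence like that of the peaks. Summits were planted inside gene bodies, which makes their recovery an easy check. Searches for the other motifs were not part of these simulations. Python 3.11.15, scipy 1.17.1 and pysam 0.24.0 were used. CRY1, CRY2 and CIART, and the clock gene lists, were chosen with earlier results of these data known, and further genes first placed in these lists are not reported here. Named genes were all peaks of the 3 repressors, listed clock genes with a peak and genes nearest to these peaks. Coordinates count from 1.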

Additional observations from a re-analysis of the deposited data

How the results depend on the processing

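The counts of repressor genes with a peak (3, 0, 0 and 0 in the 4 lists) were the same under all 20 alternatives: start sites of every gene type, peak midpoints, summits within 5000 bp of a start, a −log10 p of at least 20, and lists cut to 768 peaks. This sameness is little evidence. The cuts only remove peaks, and the 3 peaks, at ranks 209, 298 and 337, lay within them. No peak of another list came nearer than 530 kb to their summits, so midpoints, distances and gaps of this size could add none. A gap of up to 5000 bp between peaks matched none of the 3. An E-box was in 1 of the 3 peaks for windows of 100 bp and 400 bp and for the whole peak, and an E-box or E′-box in 2. Ranked by fold, the strongest percentages were 22.6% for CRY1, 19.5% for CRY2 and 10.2% for CIART. Ranked among promoter peaks they were 21.8%, 19.0% and 13.1%. In alternatives chosen after seeing the data, 14 peaks of decile 2 were not called again when the deciles were drawn anew without the peaks in EPAS1 and ARNT, and 35 in deciles by fold. By construction decile 2 by fold holds other peaks.

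No paired analysis was possible because the lists are pooled and carry no replicate numbers, and for the same reason leaving out each replicate was not run. Depth limits every absence to the threshold of its list.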

Other observations

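The shControl BMAL1 windows with 3 or more E-boxes were 9 in number, named here after their values were seen. Beside CIART they lay nearest to PLD6, CDK4, ERP29, DNAAF5, HLF, APEX1, GET4 and CSNK1D, with folds from 4.15 to 12.2 against 17.0 for CIART. The window near GET4 held 6 E-boxes. BMAL1 was called again in shBMAL1 cells at 1 of the 9, that of PLD6, which ranked 339 in shControl cells, next to CRY1. Of the peaks with 1 E-box 42 of 197 were called again (21.3%), of those with 2 E-boxes 3 of 27 (11.1%), and of those with 0, as in CRY1 and CRY2, 653 of 1576 (41.4%). The median fold was 7.13 with 0 E-boxes, 7.09 with 1, 6.73 with 2 and 7.85 over the 9 peaks with 3 or more.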
